A study of Homo sapiens with 54 samples.

Results

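Nucleotide excision repair (NER) genes were followed through the response of 2 triple negative breast cancer lines to olaparib and cisplatin (CDDP). The genes were ERCC1, ERCC2, ERCC3, ERCC4, ERCC5, ERCC6, ERCC8, XPA, XPC and DDB2. They were chosen by symbol for their role in the pathway, with earlier results of these data known. All 10 are among the 27470 rows of the table. RNA was measured in 54 QuantSeq libraries, in which each read comes from the 3′ end of a polyadenylated transcript, with 3 libraries in each of 18 conditions. SUM1315 cells carry a BRCA1 mutation and MDA-MB-468 cells are BRCA1 wild type. By the study, both lines express mutant p53. Parental cells of each line were left untreated or received olaparib (8 µM in SUM1315 and 3 µM in MDA-MB-468), the lower CDDP dose (2 µM and 1 µM), the higher CDDP dose (4 µM and 2.5 µM), or olaparib with either CDDP dose. Olaparib-resistant (OlaR) cells of each line, obtained by long culture in rising olaparib, were kept in olaparib (25 µM in SUM1315 and 15 µM in MDA-MB-468) and received no CDDP or either dose. Every OlaR library therefore comes from cells in olaparib, at a higher concentration than the parental cells received. By the study, parental cells were treated overnight, while OlaR cells stayed in olaparib without a break. Resistance, concentration and length of exposure therefore cannot be told apart. Nothing in the labels says that the 3 libraries of a condition came from separate cultures, and p-values measure only the spread between these libraries.

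NER removes bulky lesions from DNA, among them the cross-links within a strand that CDDP makes. XPC and the DDB1-DDB2 complex find lesions anywhere in the genome, while ERCC6 (CSB) and ERCC8 (CSA) act where RNA polymerase has stalled on a lesion. The helicases ERCC3 (XPB) and ERCC2 (XPD) of the factor TFIIH open the DNA, XPA and RPA hold the opened site, and the nucleases ERCC1-ERCC4 (XPF) and ERCC5 (XPG) cut on either side of the lesion before the gap is filled and sealed. DDB2 and XPC are also known targets of p53. The ERCC1-ERCC4 nuclease also takes part in the repair of cross-links between strands.

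A pair of short stretches is shown because the members with the clearest responses to CDDP alone, DDB2 and ERCC8, start beside them. The first is the part of the DDB2 start region that holds a p53 response element, chr11:47214975-47215003 on the plus strand of GRCh38.p14, read from the RefSeq promoter windows, which run from 250 bases before a start to 50 bases after it. Capitals mark the decamers of the element, of 10 bases each, which lie 1 base apart, and the element begins 5 bases after a RefSeq start of DDB2, inside the transcribed part of the gene.
DDB2 element: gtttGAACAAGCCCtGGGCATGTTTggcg
The motif searched was the p53 consensus decamer, which is its own reverse complement, taken as a pair with at most 1 base between. Such a pair was in 7 of 35116 RefSeq windows (0.0199%), and at least 1 decamer was in 6.63% of them. The limit of 1 base equals the gap of the DDB2 element, so pairs further apart were not counted in this share. Of 14 windows belonging to the members, 1 held the pair and no other held a decamer. The second stretch is the 103 bases between the start of ERCC8, on the minus strand, and the start of NDUFAF2, a mitochondrial complex I assembly factor on the plus strand, at chr5:60945074-60945176 of GRCh38 with GENCODE v44 starts, written as the plus strand. Capitals mark the CCAAT box, searched as CCAAT and as ATTGG.
ERCC8-NDUFAF2: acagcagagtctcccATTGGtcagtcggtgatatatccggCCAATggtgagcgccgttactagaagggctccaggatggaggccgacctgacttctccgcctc
It holds 2 such boxes. Of 35116 stretches of this length directly upstream of RefSeq starts, 18.5% hold at least 1 and 3.26% at least 2. A match of letters is a description and does not show that a factor binds there.

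The values are adjusted read counts, that is reads scaled by the authors to one common library size, and fold changes were taken on log2(value + 1). A member is said to rise or fall where limma, fitted over the 27 libraries of a line, called it at the adjusted p threshold of 0.05. A differentially expressed gene (DEG) also had a fold change of at least 2. Of the 10 members, 9 passed the filter of a value of at least 10 in 3 libraries in each line, and only ERCC5 did not. A library held 4977284 to 7540920 reads in parental SUM1315 cells and 3446613 to 4665505 in OlaR SUM1315 cells, against 5574767 to 9268162 and 2070301 to 4676284 in MDA-MB-468. The lower depth of OlaR libraries goes with every comparison of OlaR and parental cells, and its part in them was not tested. The libraries were sequenced in batches of 27 and the sources do not say which libraries shared one. Line and batch therefore cannot be told apart, and levels of the lines were not tested against each other. Whether OlaR and parental libraries of a line shared a batch is not known either. Some markers separated the lines in all libraries and others did not. The epithelial marker EPCAM was at 2631 to 3793 in MDA-MB-468 and at most 4.61 in SUM1315. The mesenchymal marker VIM was at 7929 to 13250 in SUM1315 and at most 53.8 in MDA-MB-468. The keratin KRT7 overlapped, at 556.9 to 2478 in SUM1315 and 1407 to 2318 in MDA-MB-468. So did KRT18, at 230.8 to 597.8 and 583.8 to 833.5. PTPRC, a marker of blood cells, reached at most 6.97. The endothelial marker PECAM1 was at 44.95 to 207.5 in SUM1315 and 1.56 to 16.4 in MDA-MB-468. The collagen gene COL1A1 was at 132.1 to 796.3 and 22.2 to 78.9. Of the hormone receptors, ESR1 was at 24.9 to 220.5 in MDA-MB-468 and at most 25.6 in SUM1315, and PGR did not exceed 3.09. In bulk RNA, fewer cells with a transcript and less of it per cell cannot be told apart.

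**Figure D1:**
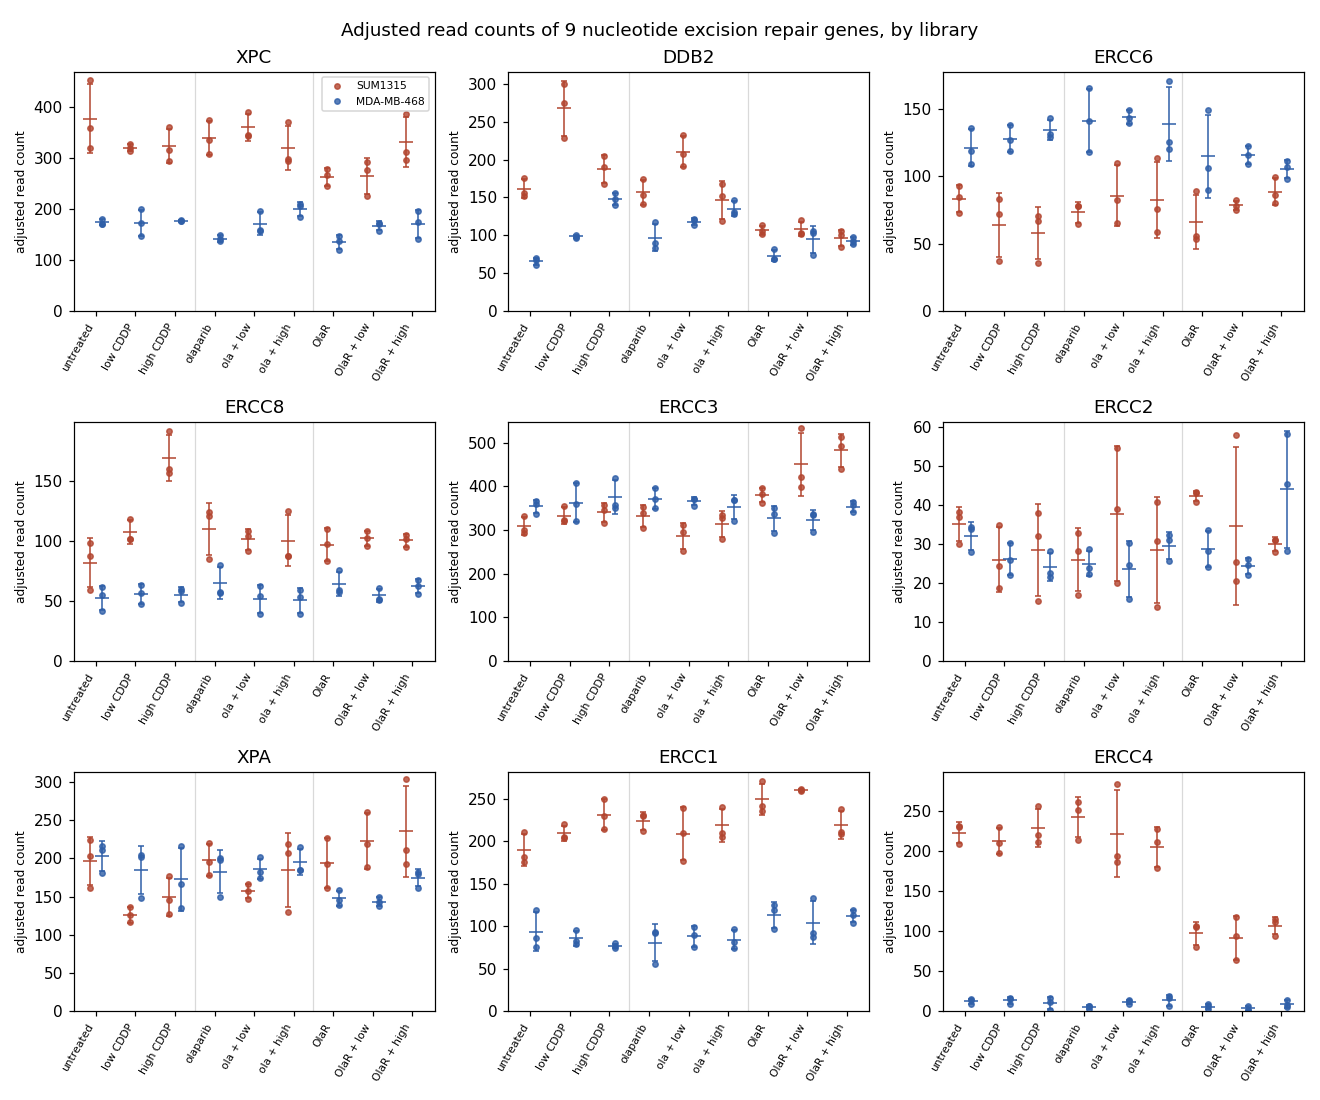
Adjusted read counts of the 9 members other than ERCC5, one panel per gene on a linear axis from 0 with its own scale, in the 9 conditions of each line (SUM1315 red, MDA-MB-468 blue). Points are libraries, ticks are means of 3 libraries and bars are the SD; ERCC4 in SUM1315 lies lower in all 9 OlaR libraries than in the 18 parental ones, and ERCC8 in SUM1315 is highest with the higher CDDP dose. Lines are drawn together for reading within a line only.

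Few members were called in the drug comparisons of parental cells. With 9 members, these counts are to be read beside the share of all genes and were not tested against it. In parental SUM1315 cells, olaparib changed 0 of 9 members by limma, where 36% of all tested genes were called. There, 1 member had an unadjusted p under 0.05, and edgeR on recovered reads called 0 with 1 under 0.05. The lower CDDP dose changed 2 (33.9% of all genes called) and the higher dose changed 1 (43.9%), which was a DEG (15.4% of all genes). In MDA-MB-468, olaparib, the lower and the higher CDDP dose each changed 1 member, and it was DDB2 each time, against 21.5%, 20% and 25.1% of all genes. With the higher dose DDB2 was a DEG, which held for 2.59% of all genes. These comparisons share the untreated libraries of their line. The heat map of fold changes gives the tested members in 9 comparisons of each line.

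**Figure D2:**
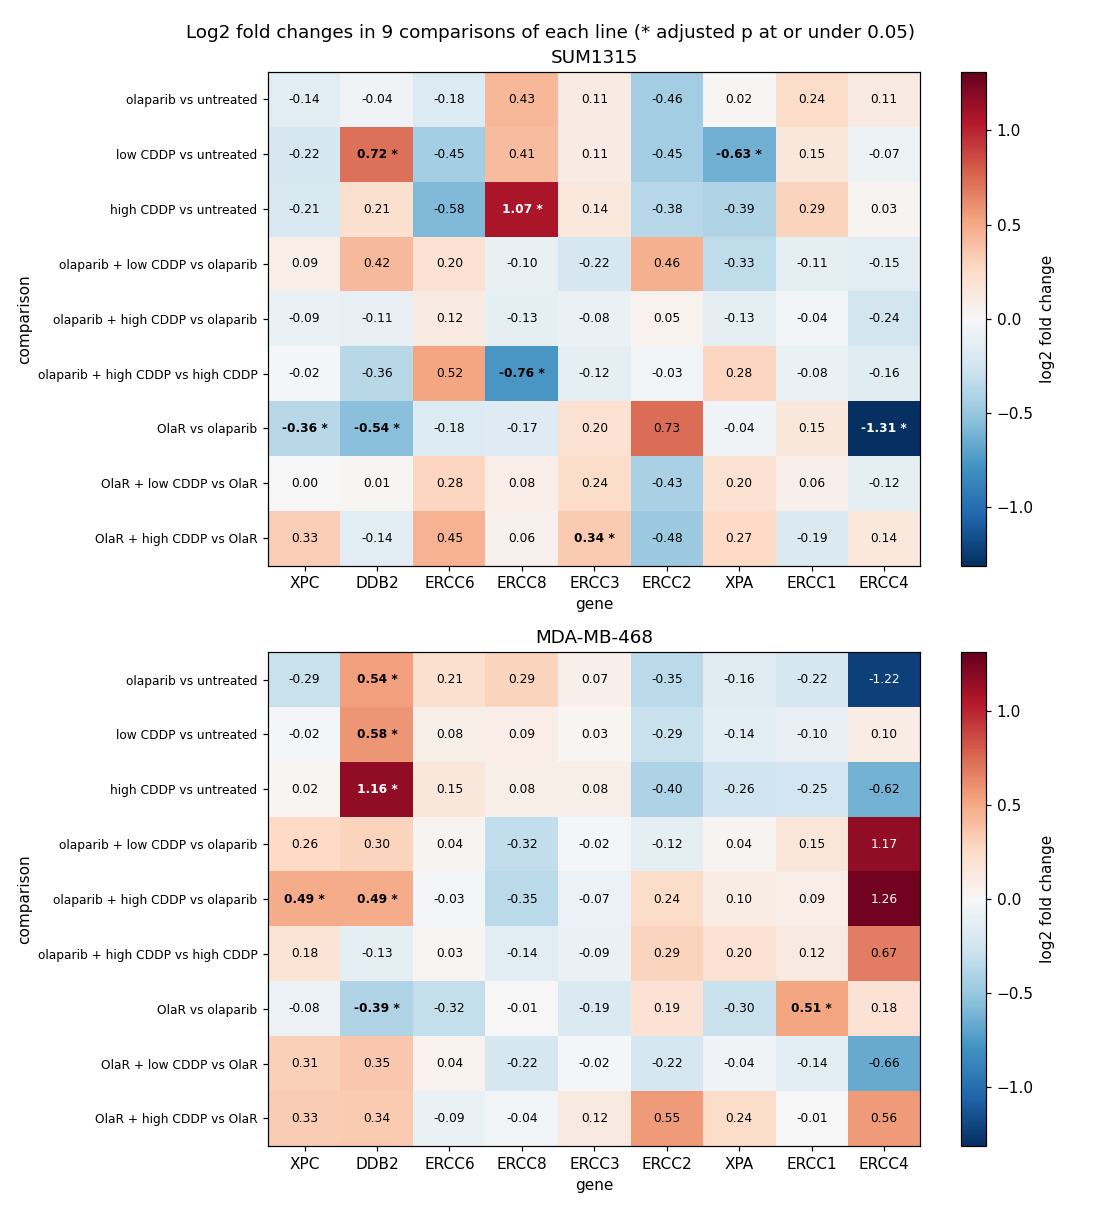
Log2 fold changes of the 9 tested members (columns) in 9 comparisons (rows) of each line, printed in each cell and coloured from blue (lower) to red (higher), with an asterisk and bold type where the adjusted p was at or under 0.05. Few cells carry an asterisk, more of them in the DDB2 column than in any other; the strong colours of ERCC4 in MDA-MB-468 have none and rest on 1 to 26 reads a library.

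DDB2, the lesion-binding subunit that opens repair in chromatin, was the member that responded to CDDP in both lines, with different dose patterns. In untreated MDA-MB-468 cells its adjusted counts were 60.8, 67.1 and 69.7. They were 98.0, 100.9 and 96.9 with 1 µM CDDP and 140.6, 148 and 156.4 with 2.5 µM, so that the 3 groups did not overlap. DDB2 rose by 0.58 on the log2 scale at the lower dose (SE 0.157, limma adjusted p = 0.0053) and by 1.16 at the higher dose (SE 0.157, adjusted p = 7.8e-08), a fold change of 2.24. Between the doses it rose by 0.58 (adjusted p = 0.013), as the only member among 9, where 6.96% of all genes were called. Without replicate 3 of the higher dose this difference was 0.55 and not called (adjusted p = 0.065).

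Olaparib alone also moved DDB2 in MDA-MB-468, to 117.3, 90.4 and 83.0, each above every untreated library. The increase was 0.54 (SE 0.157, adjusted p = 0.0091), and without the olaparib library of 117.3 it was 0.39 and not called (adjusted p = 0.11). A fit of only these 6 libraries also gave no call (adjusted p = 0.069). Adding 2.5 µM CDDP to olaparib gave 128.6, 131 and 146.5, an increase of 0.49 over olaparib (adjusted p = 0.017), one of 2 members that rose in that comparison (23.1% of all genes called). That call was lost without olaparib replicate 2 (0.45, adjusted p = 0.063), without olaparib replicate 3 (0.39, 0.11) or without replicate 3 of the combination (0.43, 0.084). The effect of CDDP was smaller in the presence of olaparib, with an interaction of -0.67 (SE 0.221, adjusted p = 0.024; 20.2% of all genes called). The interaction was not called after leaving out any one of 5 of its 12 libraries: untreated replicate 1 (-0.61), CDDP replicate 3 (-0.63), olaparib replicate 1 (-0.53) and replicates 1 and 2 of the combination (-0.63 and -0.65), with adjusted p from 0.052 to 0.11. It was not called with scaling by total reads either (-0.56, adjusted p = 0.067).

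In SUM1315, DDB2 was at 152.6, 156.3 and 175.7 in untreated cells and at 274.7, 299.9 and 228.9 with 2 µM CDDP. It rose by 0.72 (SE 0.153, adjusted p = 0.00039), a fold change of 1.65 with no overlap of libraries. With 4 µM CDDP its values were 205.4, 190.2 and 167.6, which overlap the untreated libraries, and the difference of 0.21 was not called (adjusted p = 0.27). The higher dose was below the lower one by -0.51 (adjusted p = 0.028), in a comparison in which 2 of 9 members and 10.5% of all genes were called. This call was lost without 2 µM replicate 1 (-0.48) or 2 (-0.42), or without 4 µM replicate 2 (-0.52) or 3 (-0.43), with adjusted p of 0.064 to 0.17. It was lost, too, with scaling by total reads or in a fit of these 2 groups alone. Olaparib left DDB2 at 174.9, 141.9 and 153.9, a difference of -0.04 with a 95% interval of -0.36 to 0.27.

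The response of DDB2 to each drug differed between lines. The effect of the higher CDDP dose was smaller in SUM1315 than in MDA-MB-468 by -0.95 (SE 0.196, adjusted p = 0.00021), in a fit of all 54 libraries that called 27.5% of genes. For olaparib the difference was -0.58 (SE 0.196, adjusted p = 0.029; 19.9% of genes called). The latter was not called without SUM1315 olaparib replicate 2 (-0.51) or 3 (-0.57), SUM1315 untreated replicate 3 (-0.52), MDA-MB-468 olaparib replicate 1 (-0.44) or MDA-MB-468 untreated replicate 1 (-0.53), with adjusted p of 0.051 to 0.13. Drug concentrations differ between the lines, so these differences compare each line at its own dose.

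**Figure D3:**
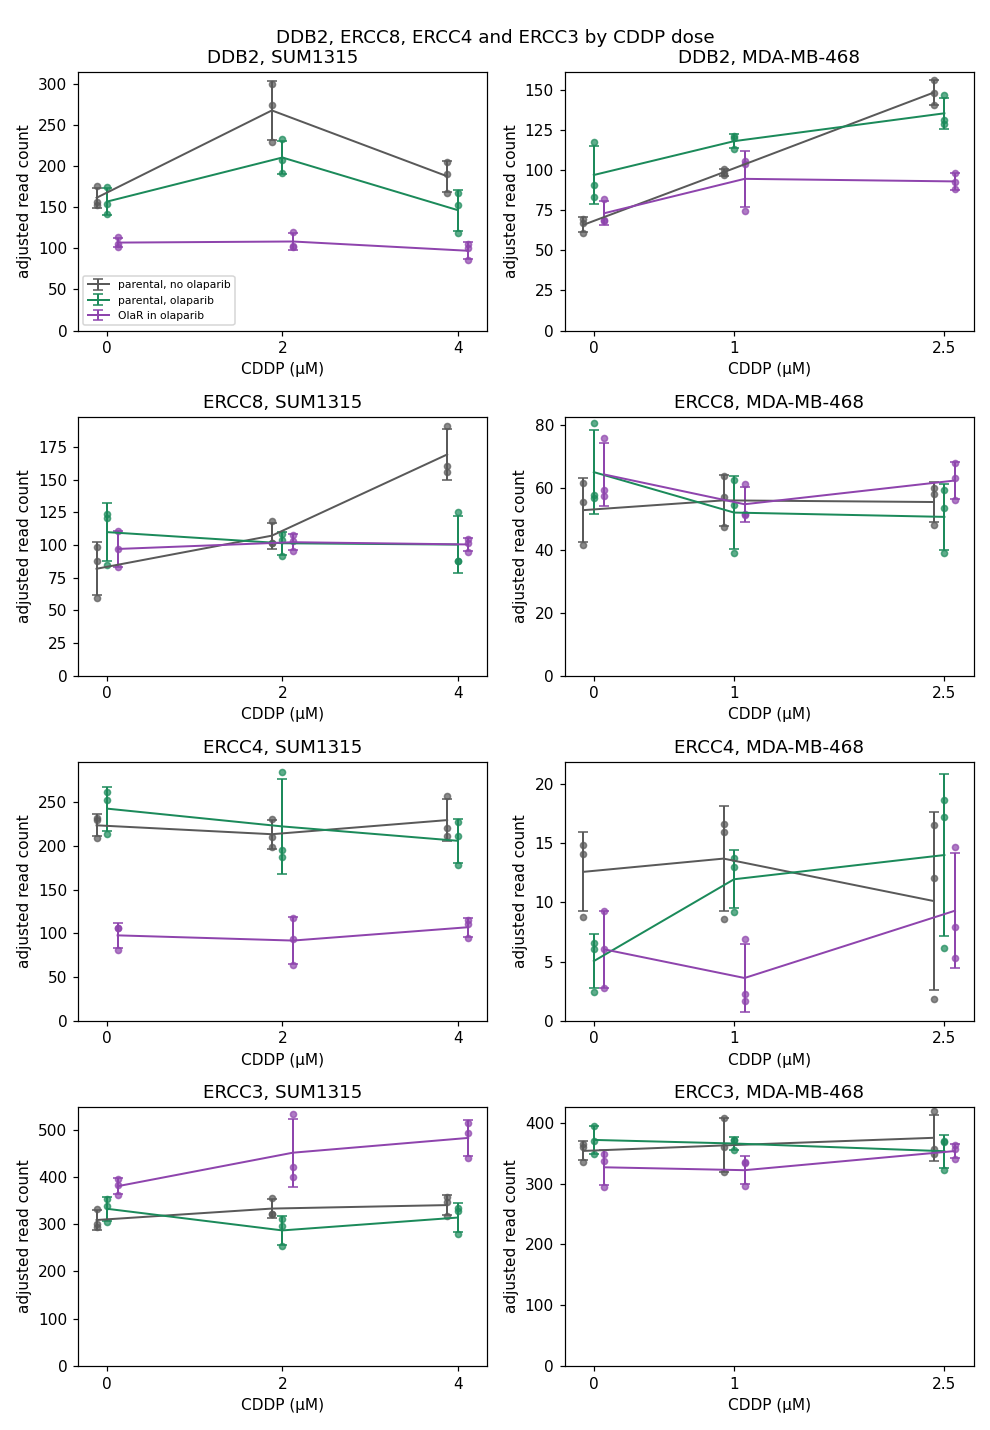
Adjusted read counts of DDB2, ERCC8, ERCC4 and ERCC3 against CDDP concentration (µM, to scale, slightly offset by series), with points for libraries, lines through the means of 3 libraries and bars for the SD, in parental cells without and with olaparib and in OlaR cells. DDB2 climbs with dose in parental MDA-MB-468 cells and peaks at 2 µM in parental SUM1315 cells, ERCC8 is high at 4 µM CDDP without olaparib only, and ERCC4 and ERCC3 of OlaR SUM1315 cells lie apart from parental cells at each dose.

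OlaR cells held less DDB2 than olaparib-treated parental cells in both lines, but in MDA-MB-468 not less than untreated parental cells. OlaR SUM1315 cells had 101.9, 113.5 and 105.6, all below the olaparib-treated libraries, and DDB2 fell by 0.54 (SE 0.153, adjusted p = 0.0039). Its 9 OlaR libraries, with or without CDDP, ran from 85.2 to 119.6 with a median of 103.3, and the 18 parental ones from 119.2 to 299.9 with a median of 175.3. In OlaR SUM1315 cells the higher CDDP dose gave 85.2, 100.3 and 105.6, a difference of -0.14 (95% interval -0.46 to 0.17). In MDA-MB-468, OlaR cells had 68.4, 69.0 and 81.9, and DDB2 fell by 0.39 (SE 0.157, adjusted p = 0.032). That call was lost without OlaR replicate 1 (-0.35, adjusted p = 0.10), OlaR replicate 2 (-0.35, 0.094) or olaparib replicate 1 (-0.25, 0.24), and in a fit of these 6 libraries alone (adjusted p = 0.082). OlaR MDA-MB-468 cells with the higher dose had 87.9, 92.8 and 98.1, a difference of 0.345 that was not called (adjusted p = 0.12). Untreated parental MDA-MB-468 cells had 60.8, 67.1 and 69.7. Over all conditions of this line, 9 OlaR libraries ran from 68.4 to 105.4 (median 87.9). The 18 parental ones ran from 60.8 to 156.4 (median 115.2), so the sets overlapped.

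XPC, the partner of RAD23B that senses distorted DNA, moved less than DDB2. In MDA-MB-468 its counts were 148.8, 140.2 and 136.6 with olaparib and 205.6, 208.8 and 185 once 2.5 µM CDDP was added. XPC rose by 0.49 (SE 0.128, adjusted p = 0.0030), and no library of one group overlapped the other. Untreated cells had 180.7, 170 and 170.8, so olaparib alone gave lower values in every library, but the difference of -0.29 was not called (adjusted p = 0.099). CDDP alone at 2.5 µM left XPC at 175.8, 175.3 and 178.1, a difference of 0.02 with a 95% interval of -0.24 to 0.28. The interaction of CDDP and olaparib for XPC was 0.47 (SE 0.181, adjusted p = 0.059); 6 of the other settings, edgeR and DESeq2 among them, called it. In SUM1315, XPC was at 334.4, 307.1 and 374.7 with olaparib and at 244.2, 277.9 and 266.5 in OlaR cells, and it fell by 0.36 (SE 0.135, adjusted p = 0.027). That call was lost with DESeq2 or with its size factors in edgeR, and without OlaR replicate 1 (-0.31, adjusted p = 0.10) or 3 (-0.37, 0.050) or olaparib replicate 1 (-0.37, 0.053) or 3 (-0.29, 0.12). The last exon of XPC is covered over 1013 bases by ENSG00000268279 on the other strand, and the strand setting of the counting is not given in the sources used here.

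ERCC8, the subunit that recruits a ubiquitin ligase to stalled polymerase, gave the largest response to CDDP alone among the members tested in SUM1315. Untreated SUM1315 cells had adjusted counts of 98.4, 87.9 and 59.2. With 4 µM CDDP the counts were 160.3, 191.4 and 156.2, all above every untreated library. ERCC8 rose by 1.07 (SE 0.192, adjusted p = 3.2e-05), a fold change of 2.09, and the call held with every library left out in turn (0.85 to 1.21). At 2 µM it was at 101.3, 101.5 and 118.7, a difference of 0.41 that was not called (adjusted p = 0.096). The doses differed by 0.65 (adjusted p = 0.024), and this call was lost without 2 µM replicate 1 (0.62) or 2 (0.62), or 4 µM replicate 1 (0.69) or 2 (0.56), with adjusted p of 0.052 to 0.11.

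The increase of ERCC8 was not seen with olaparib present. Olaparib alone gave 84.6, 124.1 and 120.9, a difference of 0.43 from untreated cells (adjusted p = 0.078). The combination with 4 µM CDDP gave 125.2, 87.9 and 87.9, which lies 0.13 below olaparib alone on the log2 scale (95% interval -0.52 to 0.26). Against 4 µM CDDP alone, ERCC8 fell by 0.76 in the combination (SE 0.192, adjusted p = 0.0067), as the 1 called member of 9 (12.8% of all genes called). The interaction of CDDP and olaparib was -1.20 (SE 0.272, adjusted p = 0.0015), again for ERCC8 alone among 9 members (21.5% of all genes called, and 8.07% with a fold of at least 2). OlaR SUM1315 cells, which were always in olaparib, had 110.4, 97.2 and 83.4 without CDDP and 94.8, 101.8 and 104.7 with 4 µM, a difference of 0.06 (95% interval -0.33 to 0.45). NDUFAF2, which starts across the shared stretch shown above, differed by -0.17 with 4 µM CDDP (adjusted p = 0.28). Its libraries were at 1033, 951.1 and 927.9 untreated and at 1009, 785 and 805.1 with the drug.

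In MDA-MB-468, ERCC8 was at 55.2, 41.7 and 61.4 untreated and at 60, 58.1 and 48.1 with 2.5 µM CDDP. The groups overlapped, with a difference of 0.08 and a 95% interval of -0.36 to 0.52. The effect of the higher CDDP dose on ERCC8 was larger in SUM1315 by 0.99 (SE 0.278, adjusted p = 0.0058). ERCC6, the remodeller that detects stalled polymerase, was not called in any drug comparison within parental or OlaR cells of either line. Its adjusted counts ran from 35.5 to 113.4 with a median of 77.6 in SUM1315 and from 89.5 to 170.7 with a median of 125.7 in MDA-MB-468. With 4 µM CDDP in SUM1315 they were 70.8, 67 and 35.5 against 72.5, 84.9 and 93.0 untreated, a difference of -0.58 (SE 0.279, adjusted p = 0.092).

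The helicase ERCC3 separated OlaR from parental cells in SUM1315. The 9 OlaR libraries ran from 362.2 to 533.2 with a median of 421.2. They lay above all 18 parental libraries, at 253 to 358.3 with a median of 321.7. The share of all genes that separate OlaR from parental libraries in this way is not given here. Without CDDP the groups were at 382.9, 362.2 and 395.3 in OlaR cells and 339.2, 353.1 and 304.8 with olaparib, and the difference of 0.20 was not called (adjusted p = 0.18). With 4 µM CDDP in OlaR cells ERCC3 was at 439.7, 514 and 493.2, and it rose by 0.34 over OlaR cells without CDDP (SE 0.117, adjusted p = 0.042). It was the only member of 9 called there, where 16.7% of all genes were. The call was lost with no filter on low values and with DESeq2 size factors in edgeR, and without OlaR replicate 1 (0.35), 2 (0.31) or 3 (0.37) or 4 µM replicate 2 (0.29) or 3 (0.32), with adjusted p of 0.064 to 0.14. ERCC2, the helicase that checks the damaged strand, was called in no comparison. It had few reads, 15 to 51 in SUM1315 and 12 to 50 in MDA-MB-468 libraries. Its last exon shares 1684 bases with KLC3 on the opposite strand, whose own counts reached at most 18.4.

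XPA, the scaffold of the opened site, fell with the lower CDDP dose in SUM1315. It went from 224.2, 161.6 and 203.7 in untreated cells to 125.9, 135.9 and 116.2, with no overlap and a difference of -0.63 (SE 0.187, adjusted p = 0.0095). Without untreated replicate 1 the difference was -0.53 and not called (adjusted p = 0.056). At 4 µM the values were 176.6, 146.2 and 126.8, a difference of -0.39 (adjusted p = 0.092). MDA-MB-468 cells had 216.5, 180.6 and 211.6 untreated and 166.3, 216.4 and 134.6 with 2.5 µM CDDP, a difference of -0.26 (adjusted p = 0.18).

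The nuclease subunit ERCC4 gave the largest fall of any called member, in OlaR SUM1315 cells. Olaparib-treated parental cells had 252.3, 214.1 and 261.8, and OlaR cells had 106.4, 80.9 and 105.9. ERCC4 fell by 1.31 on the log2 scale (SE 0.18, adjusted p = 3.5e-07), to 0.403 of the parental level. This comparison called 3 of 9 members, all lower (ERCC4, DDB2 and XPC), and 47.2% of all genes; ERCC4 was the only DEG among them (16.6% of all genes). Over all conditions, ERCC4 was at 63.8 to 117.8 in 9 OlaR libraries (median 105.9). It was at 178.7 to 284.9 in 18 parental libraries (median 217.2), so the sets did not overlap. As for ERCC3, the share of all genes that separate in this way is not given here. Neither CDDP nor olaparib was called for ERCC4 within parental SUM1315 cells, with 230.1, 231.8 and 209 untreated and 256.7, 220.2 and 211.9 at 4 µM CDDP. The call for OlaR cells held with each of the 6 libraries left out (-1.40 to -1.18) and under 10 other settings (-1.35 to -1.27).

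ERCC4 could not be compared well in MDA-MB-468, where its libraries held 1 to 26 reads. Values were 6.11, 2.45 and 6.58 with olaparib and 9.28, 2.75 and 6.08 in OlaR cells, a difference of 0.185 with a 95% interval of -0.95 to 1.32. Olaparib-treated parental cells had a mean of 5.05 without CDDP, 11.96 with 1 µM and 14.01 with 2.5 µM. OlaR cells had means of 6.04, 3.62 and 9.30. Over all conditions the 9 OlaR libraries had a median of 6.08 and the 18 parental ones of 12.5, and the sets overlapped. The difference between lines for OlaR against olaparib was -1.50 for ERCC4 (SE 0.61, adjusted p = 0.045), and for ERCC3 it was 0.38 (SE 0.143, adjusted p = 0.028), as 2 of 9 members (41.7% of all genes called, 21.4% with a fold of at least 2). Both calls were sensitive to single libraries. For ERCC4 the call was lost without any one of 9 of the 12 libraries, all but MDA-MB-468 OlaR replicate 2 and MDA-MB-468 olaparib replicates 1 and 3, with values of -1.58 to -1.13, and with a pseudocount of 0.5 (-1.51, adjusted p = 0.063) or no filter (adjusted p = 0.075). For ERCC3 it was lost without SUM1315 OlaR replicate 3 (0.35), SUM1315 olaparib replicate 3 (0.32), MDA-MB-468 OlaR replicate 3 (0.31) or MDA-MB-468 olaparib replicate 3 (0.34).

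ERCC1, the partner that ERCC4 needs to bind DNA, rose in OlaR MDA-MB-468 cells. It was at 93.6, 92.6 and 55.9 with olaparib and at 96.3, 124.6 and 118.6 in OlaR cells, with no overlap and an increase of 0.51 (SE 0.188, adjusted p = 0.019). Only ERCC1 and DDB2 were called there, with 51.5% of all genes. Without the olaparib library of 55.9 the increase was 0.27 and not called (adjusted p = 0.26), and it was not called without OlaR replicate 2 (0.44, 0.083) or 3 (0.48, 0.062). The whole last exon of ERCC1, 2392 bases, lies opposite POLR1G, which the table lists as CD3EAP. In the same comparison CD3EAP rose by 0.66 (adjusted p = 0.0095), and its part in the ERCC1 value was not tested. Between OlaR and olaparib-treated SUM1315 cells, CD3EAP rose by 0.73 (limma adjusted p = 0.0014), while ERCC1 differed by 0.15 (adjusted p = 0.33). In SUM1315 CD3EAP fell by 1.53 with olaparib (adjusted p = 4.8e-08), while ERCC1 differed by 0.245 (adjusted p = 0.13) with values of 175.9, 211 and 181.1 untreated and 230.8, 229.3 and 211.8 with olaparib. ERCC5, the other nuclease, had at most 2 reads in SUM1315, with none in 23 of 27 libraries, and at most 6 in MDA-MB-468, with none in 15 of 27. Its last exon shares 688 of 689 bases with the read-through gene BIVM-ERCC5 on the same strand, listed at 0 in all libraries, and how reads shared by both were counted is not given in the sources used here, so no fold is given.

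In the remaining comparisons few members were called. Among 9 members, a count of 0 beside the shares given here says little about the members themselves. CDDP added to olaparib in SUM1315 changed 0 of 9 by limma at the lower dose (3.76% of all genes called; 1 member under an unadjusted p of 0.05 by limma and 1 by edgeR) and 0 at the higher dose (8.44%; 0 and 0). In MDA-MB-468 the lower dose with olaparib changed 0 (5.26%; 1 by limma and 2 by edgeR), and olaparib added to the higher dose changed 0 (11.9%; 0 and 0). In OlaR cells the lower dose changed 0 members in SUM1315 (1.42%; 0 and 0) and 0 in MDA-MB-468 (4.76%; 2 and 2), and the higher dose changed 0 in MDA-MB-468 (18.7%; 2 and 1). For the last of these, XPC differed by 0.33 (adjusted p = 0.065). The interaction of CDDP with OlaR, which compares the CDDP effect in OlaR cells with that in olaparib-treated parental cells, was called for 0 members in SUM1315 (6.4%; 2 and 2) and 0 in MDA-MB-468 (15%; 0 and 0). In all of these, edgeR called 0 members as well.

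A comparison averaged over the 3 CDDP levels was added after the data were seen. In it, OlaR and olaparib-treated parental cells differed in more members and in more of all genes. The counts of called members did not stand out from the share of all genes. In SUM1315, 6 of 9 members were called (64.2% of all genes called, 15.9% with a fold of at least 2). ERCC4 fell by 1.18 (SE 0.104, adjusted p = 9.3e-12), DDB2 by 0.69 (SE 0.088) and XPC by 0.25 (SE 0.078), while ERCC3 rose by 0.49 (SE 0.068, adjusted p = 1.6e-07), XPA by 0.27 (SE 0.108) and ERCC1 by 0.16 (SE 0.072). Those of XPA and ERCC1 had adjusted p of 0.030 and 0.0496. They were lost with single libraries left out, 6 and 14 of 18 in turn, at values of 0.19 to 0.25 and 0.12 to 0.17. They were also lost in 2 and 4 of 10 other settings. In MDA-MB-468, 5 of 9 were called (68.9% of all genes called). DDB2 fell by 0.42 (SE 0.09, adjusted p = 5.7e-05), ERCC6 by 0.34 (SE 0.089), XPA by 0.27 (SE 0.08) and ERCC3 by 0.12 (SE 0.054), and ERCC1 rose by 0.38 (SE 0.108, adjusted p = 0.0017). ERCC3 had an adjusted p of 0.040, lost without any one of 9 of 18 libraries (-0.12 to -0.10) with edgeR or DESeq2, and with no filter on low values. With few reads a library, ERCC4 in MDA-MB-468 differed by -0.66 and was not called, though 6 of the alternative runs called it. In both lines DDB2 fell and ERCC1 rose, and the called ERCC3 and XPA values had opposite signs in the lines. CD3EAP, opposite the last exon of ERCC1, rose in these comparisons too. It rose by 0.93 in SUM1315 (limma adjusted p = 2.6e-09) and by 1.18 in MDA-MB-468 (adjusted p = 9.6e-12). Its part in the ERCC1 values was not tested.

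Other genes of the pathway were counted by step, beside the share of all tested genes called in either direction. Of 18 genes that fill and seal the gap, 13 rose and 0 fell with the higher CDDP dose in SUM1315 (43.9% of all genes called), with a median of 0.73 against -0.003 for all genes. PCNA, the sliding clamp, rose by 1.94 (SE 0.106), the polymerase subunit POLD1 by 1.75 (SE 0.15), and the ligase LIG1 by 1.16 (SE 0.153). At the lower dose 13 rose and 1 fell (33.9% of all genes called, median 0.60 against 0.02), and with olaparib 5 rose and 3 fell (36% of all genes called, median -0.03). In MDA-MB-468, 14 rose and 1 fell with the higher dose (25.1% of all genes called, median 0.43 against 0.009), 12 and 0 with the lower dose (20%), and 8 and 0 with olaparib (21.5%), none of them a DEG. These genes also serve DNA replication. In OlaR cells against olaparib-treated parental cells, 9 rose and 3 fell in SUM1315 (47.2% of all genes called) and 8 rose and 1 fell in MDA-MB-468 (51.5%). The clamp loader subunit RFC2 rose most in each line among the DEGs of this list, by 1.98 (SE 0.166) and 1.65 (SE 0.11).

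Of 3 RPA subunits, all rose with the higher CDDP dose in both lines (43.9% of all genes called in SUM1315 and 25.1% in MDA-MB-468), and RPA3 in SUM1315 was a DEG at 1.49 (SE 0.112). Of 7 recognition partners, 4 rose and 3 fell with olaparib in SUM1315 (36% of all genes called), where RBX1, a ubiquitin ligase subunit, rose by 1.08 (SE 0.107), and 2 rose and 3 fell with 4 µM CDDP (43.9%). In MDA-MB-468 the recognition partners gave 1 rise and 1 fall at 2.5 µM (25.1%). Of 7 tested TFIIH subunits other than ERCC2 and ERCC3, 2 rose and 1 fell at the higher dose in each line, against those same shares of 43.9% and 25.1%. Of 4 tested transcription-coupled partners in SUM1315, 0 rose and 3 fell with olaparib (36% of all genes called) and 1 rose and 2 fell with 4 µM CDDP (43.9%). Among them UVSSA, which works with ERCC8, fell by 1.06 with olaparib (SE 0.198) and by 1.21 with 4 µM CDDP (SE 0.198) in SUM1315, opposite in sign to ERCC8 at 4 µM.

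Other p53 targets were counted because DDB2 and XPC belong to them; the list of 24 also holds DDB2, XPC and PCNA. With the higher CDDP dose in MDA-MB-468, 10 rose and 1 fell (25.1% of all genes called, median 0.29 against 0.009 for all genes), and DDB2 was the 1 DEG. In SUM1315 at the higher dose 8 rose and 5 fell (43.9% of all genes called, median 0.20), with CDKN1A, the cell cycle inhibitor p21, at 1.19 (SE 0.082) and ZMAT3 at -1.16 (SE 0.135). At the lower dose in SUM1315, where DDB2 rose, 10 rose and 3 fell (33.9% of all genes called, median 0.10). In OlaR against olaparib-treated cells, 3 rose and 14 fell in SUM1315 (47.2% of all genes called, median -0.46 against -0.05) and 6 rose and 10 fell in MDA-MB-468 (51.5%, median -0.19 against -0.03). The DEGs that fell in SUM1315 were FAS, SESN2, BTG2, RRM2B and PPM1D. Those of MDA-MB-468 were TP53I3, which fell by 1.91 (SE 0.154), FDXR, which fell by 1.07 (SE 0.116), and BAX, which rose by 1.16 (SE 0.165).

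The order of the 9 condition means differed in how clearly conditions stood apart. For ERCC8 in SUM1315, 4 µM CDDP came first and did not overlap the next condition, and the other 7 neighbouring pairs overlapped. For ERCC4 the 6 parental conditions came before the 3 OlaR ones, with the only gap between them. For ERCC3 the OlaR conditions came first, with a gap below OlaR cells without CDDP and another above them. For DDB2 in MDA-MB-468, 3 of 8 neighbouring pairs did not overlap, and in SUM1315 all 8 overlapped. Every neighbouring pair overlapped for ERCC1, ERCC2, ERCC6 and XPA in both lines. How often such gaps occur among all genes is not given here.

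Genes most like a member were sought by Pearson correlation over the 18 condition means, centred within each line, among 9722 genes, for DDB2, XPC and the members that were DEGs. DDB2 was closest to YEATS4 (r = 0.90), CCNO (0.87) and HAX1 (0.86). XPC was closest to RUFY2 (0.86), LARP1B (0.81) and CHAC1 (0.81). ERCC4 was closest to RNF41 (0.85), MOV10 (0.84) and SCYL2 (0.83), and ERCC8 to ACTL6A (0.77), NXT2 (0.77) and CCT8 (0.76). Among the members, the highest value was that of XPC and ERCC4 (0.69) and the next that of ERCC3 and XPA (0.62). All points come from the same 54 libraries, and the best of many genes is high by selection.

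The members lie on 9 chromosomes, by GENCODE v44 on GRCh38. DDB2 spans chr11:47214465-47239217 on the plus strand, with a last exon of 418 bases. ERCC8 spans chr5:60866454-60945073 (minus, last exon 8230 bases), ERCC4 spans chr16:13920138-13952348 (plus, 4735 bases) and ERCC3 spans chr2:127257290-127294166 (minus, 438 bases). XPC spans chr3:14145147-14178621 and XPA chr9:97674909-97697340, both minus. ERCC6 spans chr10:49454168-49539538 on the minus strand and ERCC5 chr13:102845831-102875995 on the plus strand. ERCC2 (chr19:45349837-45370918) and ERCC1 (chr19:45407334-45478828) are close to each other on the minus strand of one chromosome.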

How the data were processed

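RNA-seq values were analysed for all 54 libraries, grouped by the labels. By the labels and the study's methods, the authors sequenced QuantSeq 3′ libraries and used CASAVA 1.8.2, FastQC, STAR, HTSeq and edgeR on hg38; the strand setting and annotation are not given in the sources used here. The signal in the deposited table is a read count that the authors adjusted with edgeR to a common library size of 5585170. Whole reads were recovered, and 100% of 1483380 values were given back within a relative difference of 1e-06. The authors' deposited log2 fold changes and p-values were not used. The higher MDA-MB-468 dose is 2.5 µM in the labels' titles and is used, although the series text differs.

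Log2(value + 1) was fitted with limma 3.58.1 (trend) in R 4.3.3, over 13133 genes in SUM1315, 13012 in MDA-MB-468 and 14460 in both lines, with a value of at least 10 in 3 libraries and Benjamini-Hochberg adjustment. The script was tested on simulated data. The members and gene lists were chosen with earlier results of these data known. All members were named, with some of the list genes past the DEG threshold and, for DDB2, XPC and DEG members, the 3 genes most alike. The comparison of CDDP doses and the mean over CDDP levels were added after the data were seen. Alternatives were other pseudocounts (0.5 and 5), filters, fits, edgeR 4.0.16 and DESeq2 1.42.0 on recovered reads, scaling by total reads, a replicate block, a fold limit and each library left out.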

Additional observations from a re-analysis of the deposited data

Results flagged for a closer look

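In each of 7 results the effect of one contrast differed between groups by a test of the difference itself, with limma's adjusted p. Within SUM1315, the effect of the higher CDDP dose on ERCC8 differed by -1.2 on the log2 scale between cells with and without olaparib (adjusted p = 0.0015). Within MDA-MB-468, that on DDB2 differed by -0.67 (adjusted p = 0.024). Between the lines (SUM1315 minus MDA-MB-468), the effect of the higher CDDP dose differed by -0.95 for DDB2 (adjusted p = 0.00021) and by 0.99 for ERCC8 (adjusted p = 0.0058), and that of olaparib differed by -0.58 for DDB2 (adjusted p = 0.029). The difference of OlaR and olaparib-treated parental cells differed by 0.38 for ERCC3 (adjusted p = 0.028) and by -1.5 for ERCC4 (adjusted p = 0.045), whose MDA-MB-468 libraries held 1 to 26 reads. The ERCC8 and DDB2 results of the higher CDDP dose between lines were called with every library left out in turn, as was the ERCC8 interaction. Groups of 3 libraries were not tested for single outlying libraries.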

How the results depend on the processing

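No log2 fold change of a called member changed sign under any alternative run. Leaving aside single libraries, 2606 member values kept their call or lack of one, 47 lost a call and 17 gained one. The 47 include calls lost to the added fold limit, which leaves the adjusted p as it was. Calls that held in all settings other than the fold limit, and with every library left out, included ERCC4 and DDB2 in OlaR SUM1315 cells, ERCC8 with the higher CDDP dose, against the combination and in its interaction, DDB2 with the lower dose in both lines and with the higher dose in MDA-MB-468, and XPC with the combination in MDA-MB-468.

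The number of called members moved as follows. With a fold of at least 2 it was 1 for OlaR against olaparib and 1 for its mean over doses in SUM1315, and 0 in SUM1315 for the lower dose, the combination against CDDP, OlaR with the higher dose and the comparison of doses. It was also 0 in MDA-MB-468 for olaparib, the lower dose, the combination against olaparib, OlaR, its mean over doses, the interaction with olaparib and the comparison of doses. With no filter it was 0 for OlaR with the higher dose in SUM1315 and 1 between lines for OlaR, and 1 there with a pseudocount of 0.5. A fit of only the groups compared gave 1 for the SUM1315 doses, 0 for olaparib and 1 for OlaR in MDA-MB-468. The MDA-MB-468 interaction had 2 in that fit, with a filter of 50, with edgeR, with DESeq2 and with DESeq2 size factors, which gave 0 for OlaR with the higher dose in SUM1315. Scaling by total reads gave 2 for the higher dose, 2 for OlaR with the higher dose and 1 for the doses in SUM1315, and in MDA-MB-468 2 for olaparib, 4 for OlaR and 1 for OlaR with the higher dose; it moved the median of all genes by 0.12 for the higher dose in SUM1315 and by 0.105 for the MDA-MB-468 interaction. The causes were not tested.

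With single libraries left out, counts ran in SUM1315 from 0 to 1 for olaparib, 1 to 3 for the higher dose, 0 to 2 for the doses, 0 to 1 for OlaR with the higher dose, 2 to 3 for OlaR and 4 to 6 for its mean. In MDA-MB-468 they ran from 0 to 1 for olaparib, 1 to 2 for the higher dose, 0 to 1 for the doses, 1 to 2 for the combination, 0 to 2 for the interaction, 1 to 3 for OlaR, 0 to 1 for OlaR with the higher dose and 4 to 6 for the mean. Between lines they ran from 0 to 1 for olaparib, 2 to 3 for CDDP and 0 to 2 for OlaR.

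Libraries of the same replicate number did not deviate together (r from -0.098 to 0.163 in SUM1315, over 0.1 in 4 of 108 pairs, and -0.047 to 0.043 in MDA-MB-468). A replicate block changed 2 calls, both in the mean over doses: ERCC1 in SUM1315 was lost (0.16, adjusted p = 0.050), and ERCC4 in MDA-MB-468 was called (-0.66, adjusted p = 0.046). Few reads limit the precision for ERCC4 in MDA-MB-468, ERCC2 and ERCC5, and why they were few was not tested. Replicate pairs differed by more than sampling noise (chi-square per degree of freedom 1.60 to 22.1).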
